A study of Mus musculus with 79 samples.

Results

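The Pax genes are the 9 mouse genes Pax1 to Pax9, each encoding a transcription factor that binds DNA through a paired domain. They were taken by name from the gene table of the series, and all 9 of the 9 names were found among its 25965 rows. Their RNA was read in 9 libraries of adult hypothalamus, and 3 histone marks were read over their promoters and gene bodies in 24 further libraries. The groups were +/+ and Δ/D329A mice about 14 weeks old. Per the study's methods the D329A line was made in C57BL/6 ES cells and crossed with C57BL/6Babr mice that carried the floxed allele and Zp3-Cre. In Δ/D329A mice the maternal Dnmt3a allele (Δ) lacks exon 18, removed in the oocyte by Zp3-Cre from the floxed allele, and the paternal allele carries the D329A point mutation in exon 8, which changes the PWWP domain. The +/+ mice came from the same cross and carry neither allele. Both alleles were present from fertilisation on, so the genotype differed in every cell of the animal and not in the hypothalamus alone. RNA came from 5 +/+ and 4 Δ/D329A animals. Chromatin came from 3 animals of each genotype, with H3K4me3, H3K27me3, H3K36me3 and an input library for each animal. The labels give no sex. The study's legends conflict on the RNA libraries, called female in one place and shown in another, together with the chromatin, as male hypothalamus.

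Pax proteins act mostly in the embryo, where they set the identity of organs and of regions of the neural tube. Pax1 and Pax9 pattern the vertebral precursors, thymus and teeth. Pax2, Pax5 and Pax8 act at the boundary of midbrain and hindbrain and in the kidney, inner ear, thyroid and B cells. Pax3 and Pax7 act in the dorsal neural tube, neural crest and muscle precursors, and Pax4 and Pax6 in the pancreas and eye, with Pax6 also active in parts of the forebrain. In the adult most of these genes are silent in most cells and lie under H3K27me3, the mark laid down by Polycomb complexes. H3K4me3 marks active and poised starts, and H3K36me3 covers transcribed gene bodies and is the mark that PWWP domains bind.

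On GRCm38 the gene rows place Pax1 at chr2:147361925-147393295 (+ strand) and Pax9 at chr12:56691767-56712822 (+ strand). The rows of the next group are Pax2 at chr19:44756049-44838268 (+ strand), Pax5 at chr4:44531145-44711446 (- strand) and Pax8 at chr2:24420551-24475599 (- strand). The others are Pax3 at chr1:78101267-78197134 (- strand), Pax7 at chr4:139737062-139833530 (- strand), Pax4 at chr6:28442334-28449353 (- strand) and Pax6 at chr2:105668896-105703160 (+ strand). The 9 genes lie on 6 chromosomes and span 7.02 kb (Pax4) to 180 kb (Pax5).

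The libraries differed in depth. Reads on genes came to 5617932 to 9976687 in the +/+ RNA libraries and 3874084 to 6598737 in the Δ/D329A ones, and the chromatin libraries were scaled to 12676361 to 30207875 reads. The RNA values are log2 RPKM, in which a gene without a read was set to 0.9 reads, so that such a gene stands 0.37 higher on the log2 scale in the Δ/D329A libraries by depth alone. Whole reads were therefore recovered from the table and are given below beside the log2 values, as such or as CPM (reads scaled to 1000000 reads on genes). Dnmt3a itself stood at 1.71 to 2.11 log2 RPKM in +/+ and 1.51 to 1.72 in Δ/D329A. This count over the whole gene does not check the genotype, because it does not separate reads of the deleted exon or of the changed base. The pooled reads of the hypothalamic neuron markers fixed for the comparison were 826 to 1101 CPM in +/+ and 819 to 1065 in Δ/D329A, with all 12 of the 12 genes read in every library.

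The sequences before the starts of Pax1, Pax2, Pax6 and Pax9 are shown because the marks at these starts are described below, and because CpG dinucleotides are the substrate of DNMT3A. They are the 250 bases before the RefSeq start on GRCm38.p6, 5′ to 3′, with each CpG in capitals.
Pax1 (chr2:147364744-147364993, + strand): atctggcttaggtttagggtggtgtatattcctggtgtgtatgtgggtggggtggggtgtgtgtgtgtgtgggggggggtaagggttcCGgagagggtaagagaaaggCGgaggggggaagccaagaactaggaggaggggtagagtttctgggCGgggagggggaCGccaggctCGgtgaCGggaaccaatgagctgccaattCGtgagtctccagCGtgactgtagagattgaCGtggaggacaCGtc
Pax2 (chr19:44756656-44756905, + strand): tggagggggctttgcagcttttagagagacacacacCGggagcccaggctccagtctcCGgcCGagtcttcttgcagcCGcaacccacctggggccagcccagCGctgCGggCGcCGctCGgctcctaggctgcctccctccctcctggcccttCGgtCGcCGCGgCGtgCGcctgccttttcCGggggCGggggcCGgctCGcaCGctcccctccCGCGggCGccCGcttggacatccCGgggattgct
Pax6 upstream start (chr2:105668646-105668895, + strand): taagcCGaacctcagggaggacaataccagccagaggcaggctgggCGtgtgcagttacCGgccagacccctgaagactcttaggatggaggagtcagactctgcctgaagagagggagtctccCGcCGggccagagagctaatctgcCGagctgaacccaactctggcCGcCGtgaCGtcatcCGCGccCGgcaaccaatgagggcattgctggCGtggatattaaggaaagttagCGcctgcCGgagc
Pax6 downstream start (chr2:105682213-105682462, + strand): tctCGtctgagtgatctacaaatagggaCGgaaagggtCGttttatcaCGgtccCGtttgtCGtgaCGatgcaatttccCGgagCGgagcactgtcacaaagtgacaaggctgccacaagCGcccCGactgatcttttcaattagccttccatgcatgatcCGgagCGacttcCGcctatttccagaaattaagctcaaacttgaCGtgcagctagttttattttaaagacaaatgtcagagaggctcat
Pax9 (chr12:56695221-56695470, + strand): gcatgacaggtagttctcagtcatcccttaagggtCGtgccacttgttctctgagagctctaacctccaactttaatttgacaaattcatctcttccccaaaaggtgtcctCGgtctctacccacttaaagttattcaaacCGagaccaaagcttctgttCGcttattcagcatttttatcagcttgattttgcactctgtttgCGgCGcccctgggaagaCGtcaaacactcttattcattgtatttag
The RefSeq table held 10 starts of 7 Pax genes and none of Pax3 and Pax4. Their 250-base windows held 5 to 25 CpG, against a median of 6 over 32851 windows of the same length, of which 92.1% held at least 1. The window of the downstream Pax2 start held the 25. Across the wider 2 kb promoters used for the marks, the Pax genes held 15 (Pax4) to 88 CpG (Pax2) with a median of 74, against a median of 46 over all 25952 promoters.

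The first question was which Pax genes the adult hypothalamus transcribes. Per length, Pax6 stood highest in +/+ with 0.249 ± 0.082 RPKM (SD, n = 5), and Pax7 followed with 0.0837 ± 0.0338 RPKM. The ranges of Pax6 (0.182 to 0.345 RPKM) and Pax7 (0.0405 to 0.121 RPKM) did not overlap. Below them came Pax2, Pax8, Pax9 and Pax3 with means of 0.0170 to 0.00417 RPKM, and the ranges of neighbours in this order all overlapped. Pax1, Pax4 and Pax5 had no read in any +/+ library.

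Pax6, which specifies eye, pancreas and forebrain territories and remains on in the zona incerta, was read 71, 107, 88, 56 and 64 times in the +/+ libraries and 81, 39, 80 and 86 times in the Δ/D329A ones. The groups overlapped. The difference was 0.23 ± 0.29 (SE) on the log2 RPKM scale, Δ/D329A minus +/+, with an adjusted p of 0.849 in limma. Pax6 was the only Pax gene to reach 0.1 RPKM in at least 4 libraries, the minimum for that fit. Of all 17839 genes tested 0.107% were called at an adjusted p under 0.01, and Pax6 was not among them. Its reads overlap those of Elp4, which is transcribed into the end of the Pax6 row and had 297 to 449 reads in +/+ and 177 to 274 in Δ/D329A, and whether strand was used in the counting is not given in the sources used here. Over the 9 libraries the genes most like Pax6 in their log2 values were Kcnt2 (Pearson r = 0.93), Cdh12 (0.91) and Erbb4 (0.91), among genes with a mean of at least 20 reads. These correlations describe libraries of unequal depth and carry no test.

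Pax7, a gene of the dorsal midbrain and of muscle stem cells, had 13, 6, 9, 7 and 4 reads in +/+ and 7, 0, 6 and 6 in Δ/D329A. The groups overlapped and differed by -0.53 on the log2 RPKM scale (exact permutation p = 0.516). Without the Δ/D329A library that had no read the difference was 0.10, so that its direction rests on that library. Skeletal muscle markers summed to 3.55 to 7.93 CPM in +/+ and 2.84 to 5.61 in Δ/D329A.

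Pax1 was the Pax gene whose reads were confined to the Δ/D329A libraries in more than a trace. It had 0 reads in all 5 +/+ libraries and 9, 1, 7 and 0 in the Δ/D329A ones. Replicates 1 and 3 held 16 of the 17 reads, and replicate 4 had none, so the groups touch at 0. Summed over each genotype, the CPM of Pax1 in Δ/D329A was 9.26-fold that in +/+ if the whole +/+ group is set to 3 reads, the limit that a count of 0 allows. This ratio takes the 17 Δ/D329A reads as exact, so it is not a full lower limit. The mean was 0.712 ± 0.684 CPM (SD, n = 4) against 0 (n = 5), with an exact permutation p of 0.0476 on that scale and 0.00794, the smallest p that 5 against 4 can give, on the deposited log2 scale. The log2 p rests in part on depth. Replicate 4, without a read, stands at -5.80 there, above every +/+ library without a read (-6.52 to -6.06). Over all genes Pax1 did not pass in edgeR (adjusted p = 0.090) or in DESeq2 (adjusted p = 0.068). No +/+ read and a read in at least 3 of the Δ/D329A libraries was the pattern of 75 genes, 0.289% of 25952, and Pax1 was the 1 Pax gene of this kind. Only the 6908 genes with no +/+ read can show it, and 1348 of these had a Δ/D329A read. The pattern is that of Pax1 itself, so the share is a description. In the other direction 984 genes had a +/+ read and none in Δ/D329A. AI646519, the row that overlaps Pax1, had 0 reads in all libraries.

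Pax8, a regulator of thyroid, kidney and inner ear, had 0, 0, 1, 2 and 0 reads in +/+ and 2, 1, 5 and 6 in Δ/D329A. It was read in every Δ/D329A library and in 2 of the +/+ ones, and the groups overlapped. The CPM of the summed reads was 7.63-fold higher in Δ/D329A (95% counting interval 2.13 to 41.4), and the exact permutation p was 0.0238 on the log2 scale and 0.0317 in CPM.

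Pax3, the paired-domain factor of the neural crest and dorsal neural tube, had 0, 0, 0, 2 and 0 reads in +/+ and 3, 2, 3 and 1 in Δ/D329A, again with a read in every Δ/D329A library and with overlapping groups. The ratio of summed CPM was 7.35 (95% counting interval 1.52 to 69.9; exact permutation p = 0.0238 on either scale). For Pax3 and for Pax8 leaving out any +/+ library but the one with most reads raised the exact permutation p to 0.0571, and so did single Δ/D329A libraries to 0.0536 (replicates 1, 2 and 3 for Pax3, replicate 4 for Pax8).

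Pax9, expressed in tooth, palate and vertebral precursors, had 0, 0, 0, 1 and 1 reads in +/+ and 5, 0, 3 and 1 in Δ/D329A. The ratio of summed CPM was also 7.35 (95% counting interval 1.52 to 69.9). The exact permutation p was 0.00794 on the log2 scale, but 0.0635 in CPM, where a gene without a read is at 0. Pax5, the B-cell and midbrain factor, had 0 reads in +/+ and 2, 0, 0 and 1 in Δ/D329A, and Pax4, a factor of pancreatic endocrine cells, had 1 read in 1 Δ/D329A library. Their exact permutation p of 0.00794 and 0.0159 on the log2 scale became 0.167 and 0.444 in CPM. Pax2, a kidney, optic and midbrain factor, had 1, 1, 5, 0 and 0 reads in +/+ and 5, 0, 2 and 1 in Δ/D329A, a ratio of 1.87 (95% counting interval 0.592 to 6.05; exact permutation p = 0.333 on the log2 scale and 0.540 in CPM).

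Thus 8 of the 9 Pax genes had a higher mean in Δ/D329A on the log2 scale, where 70% of all 25952 genes did. In CPM, which has no floor, 8 of 9 were higher too, beside 43.7% of all genes. For 3 of them (Pax1, Pax3 and Pax8) the exact permutation p was under 0.05 on both scales, as for 2.1% of all genes in this direction. Among the 5953 genes with 1 to 58 reads over all libraries, the range of the Pax genes other than Pax6, 81.8% were higher on the log2 scale, 59.2% in CPM, and 3.39% had such a p on both scales. These single-gene p values are not corrected over all genes, and no Pax gene passed limma, edgeR or DESeq2 over all genes. Intervals and limits cover counting error only, and in bulk tissue fewer cells of a type and less RNA per cell cannot be told apart. Among markers fixed for other cells, midbrain and hindbrain genes summed to 26.5 to 49.2 CPM in +/+ and 23.2 to 93.8 in Δ/D329A, those of zona incerta, prethalamus and thalamus to 281 to 451 and 388 to 696, those of the medial habenula to 32.3 to 46.5 and 29.9 to 45.8, and those of melanocytes and meninges to 19.9 to 79.4 and 46.4 to 71.2. B-cell markers stood at 0.139 to 1.60 in +/+ and 0.175 to 1.60 in Δ/D329A. All of these ranges overlapped, but 2 of the overlaps rest on 1 Δ/D329A library each. For midbrain and hindbrain genes it was replicate 2 (23.2 CPM), and replicates 1, 3 and 4 had 88.5, 76.8 and 93.8. For zona incerta, prethalamus and thalamus it was replicate 3 (388 CPM), and replicates 1, 2 and 4 had 696, 558 and 499. The sums can hide single genes. In the medial habenula set 1 gene was called, Pou4f1, with 0 to 5 reads in +/+ and 27 to 58 in Δ/D329A. In the set of melanocytes and meninges 1 gene was called, Dct, with 0 to 4 and 46 to 73 reads. The highest genes of these sets were Nr4a2 and Dcn. The part of these cell types in the Pax reads was not tested.

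**Figure D1:**
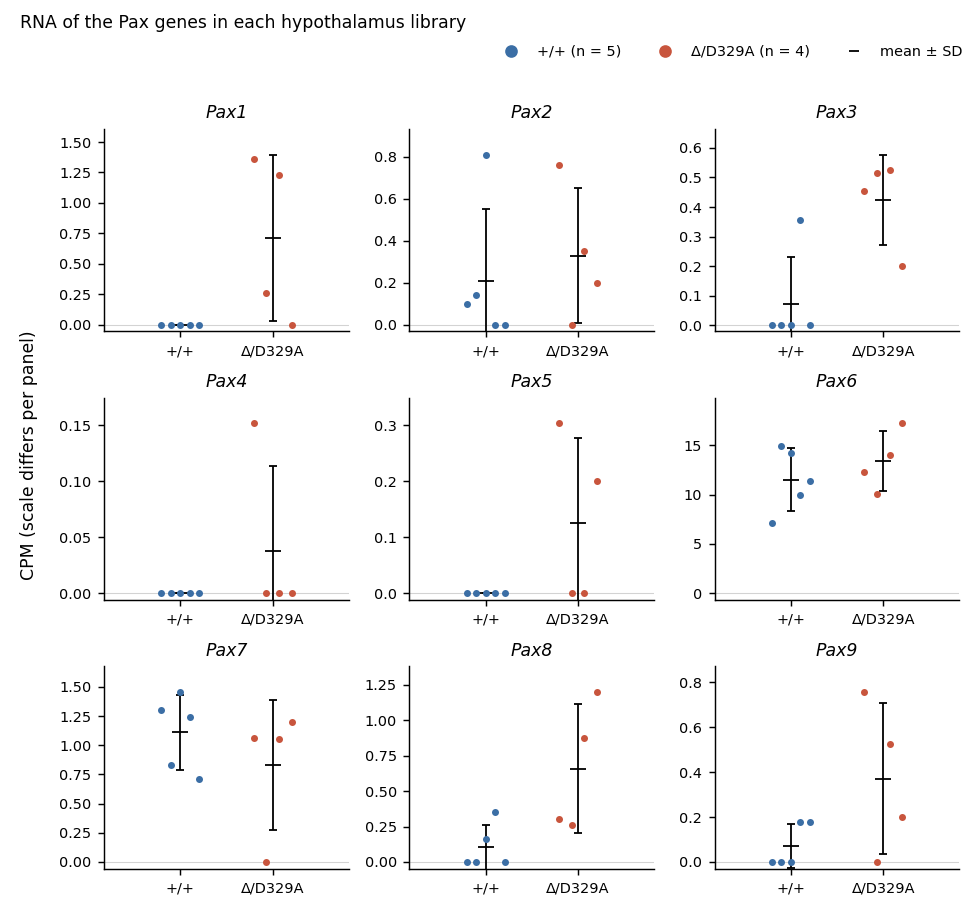
RNA of the 9 Pax genes, in CPM (reads scaled to 1000000 reads on genes), for each +/+ (n = 5) and Δ/D329A library (n = 4), with the mean and SD of each group a scale of its own per panel and SD bars cut just below 0. Pax6 overlaps between the groups, Pax1 is at 0 in every +/+ library, and Pax3 and Pax8 have a read in every Δ/D329A library.

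The genes that Pax proteins act with or regulate were followed in 9 lists with 107 entries, of which 70 passed the filter and 2 were called at an adjusted p under 0.01 (limma), beside 0.107% of all genes tested. Both were higher in Δ/D329A. Dct, a melanocyte enzyme gene listed with the targets of Pax3 and Pax7, had 0 to 4 reads in +/+ and 46 to 73 in Δ/D329A, a difference of 4.97 ± 0.38 (SE, log2 RPKM, adjusted p = 2.03e-04 in limma). Wt1, a kidney and gonad factor listed with the targets of Pax8 and Pax2, had 0 to 2 reads in +/+ and 32 to 61 in Δ/D329A, a difference of 5.72 on the log2 RPKM scale. Wt1 reached the minimum of 0.1 RPKM in the 4 Δ/D329A libraries and in no +/+ library, so it passed the filter through the group where it was high, and the count of 2 supports nothing for that list. Without any filter its adjusted p was 2.67e-05 in limma. Wt1 was not tested with a minimum of 0.5 RPKM or without any 1 of the Δ/D329A libraries. Dct reached the minimum in those 4 libraries and in 1 +/+ library, so the 4 Δ/D329A libraries alone met the filter. The count of 2 thus supports nothing for the list of Dct either. Without any filter the adjusted p of Dct was 5.43e-04 in limma. The lists were chosen with earlier results of these data known, and the study names Wt1 among its upregulated genes. Mlana, another melanocyte marker, was at 0 reads in all libraries.

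In the other 7 lists no member was called. The genes of the midbrain-hindbrain boundary had a median difference of 0.63 over 7 tested members, against 0.065 over all genes tested. Among them Gbx2, which sets the hindbrain side of the boundary, had 11 to 53 reads in +/+ and 37 to 122 in Δ/D329A without overlap on the log2 RPKM scale (difference 1.79 ± 0.45 SE, adjusted p = 0.255 in limma), and En2, an engrailed factor of the same region, had 2 to 12 and 6 to 39 (2.29 ± 0.55 SE, adjusted p = 0.234 in limma). With DESeq2, which called 1.23% of 20381 genes, both passed at adjusted p of 1.31e-04 and 0.00153. Of 10 tested Pax6 targets the median difference was -0.08, and Fabp7, the radial glia fatty acid binding protein, stood lower in every Δ/D329A library on that scale (-0.77 ± 0.21 SE, adjusted p = 0.333 in limma, 3.11e-04 in DESeq2). The median difference was 0.08 both for the partners in the retinal determination network (Eya, Dach and their homeobox partners) and for the cofactors, -0.24 for Pax3 and Pax7 targets, 0.13 for Pax5 targets, 0.27 for Pax8 and Pax2 targets, 0.14 for Pax4 targets and 0.02 for Pax1 and Pax9 targets. Eya2, a phosphatase of that network, differed by 0.71 (adjusted p = 0.309 in limma), Msx1, a homeobox factor of tooth and limb, by 1.30 (adjusted p = 0.355), and Sox2, which binds DNA beside Pax6, by -0.01 (adjusted p = 0.997).

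Among the neighbours of the Pax genes, Nkx2-9, a homeobox gene 78.5 kb from Pax9, had 0 to 2 reads in +/+ and 2 to 9 in Δ/D329A (difference 1.77, adjusted p = 0.234 in limma), and Gm12462, which overlaps Pax5, had 4 to 13 and 13 to 24 reads (1.76, adjusted p = 0.0546 in limma). Psd4, beside Pax8, differed by 1.20 (adjusted p = 0.355 in limma). None of the 27 neighbouring or overlapping rows was called.

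Chromatin was read next, in RPM per 2 kb tile, averaged over the tiles of each promoter (1500 bp before to 500 bp after the start of the gene row) and gene body (from 500 bp after the start to the gene end). In +/+ hypothalamus all 9 Pax promoters lay deep in H3K27me3. Their levels were 4.81 (Pax8) to 7.81 RPM (Pax1), against a median of 0.483 RPM over 25952 promoters. Over input this was a log2 level of 2.18 (Pax4) to 3.26 (Pax5), in the 96.8 to 99.9 percentile of all promoters. Gene bodies stood at 2.39 (Pax8) to 5.69 RPM (Pax3), in the 95.5 to 98.9 percentile over input. The 4 gene bodies above 4 RPM were those of Pax1, Pax3, Pax6 and Pax9. Pax6 is thus both the most transcribed Pax gene of this tissue and covered by H3K27me3, as read over a mixture of cells.

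The mark formed domains far wider than the promoters. A domain was taken as the run of tiles, nearest the promoter, whose log2 ratio of H3K27me3 over input averaged at least 1 over the 6 animals. Domains were 13 kb (Pax4) to 189 kb wide (Pax2), with a median of 63 kb, and each reached its promoter. The Pax2 domain (chr19:44656001-44845000) spans the whole gene and ran to the edge of the 100 kb searched before it. The Pax3 domain (chr1:78104001-78229000) was 125 kb wide and held 97.1% of the gene, and the 63 kb Pax9 domain (chr12:56667001-56730000) held the whole gene. In Pax5, a gene of 180 kb, and in Pax8, the domains of 101 and 24 kb held 33.0% and 33.8% of the gene. At a log2 threshold of 0.5 the widths were 27 to 250 kb and at 1.5 they were 9 to 93 kb.

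**Figure D2:**
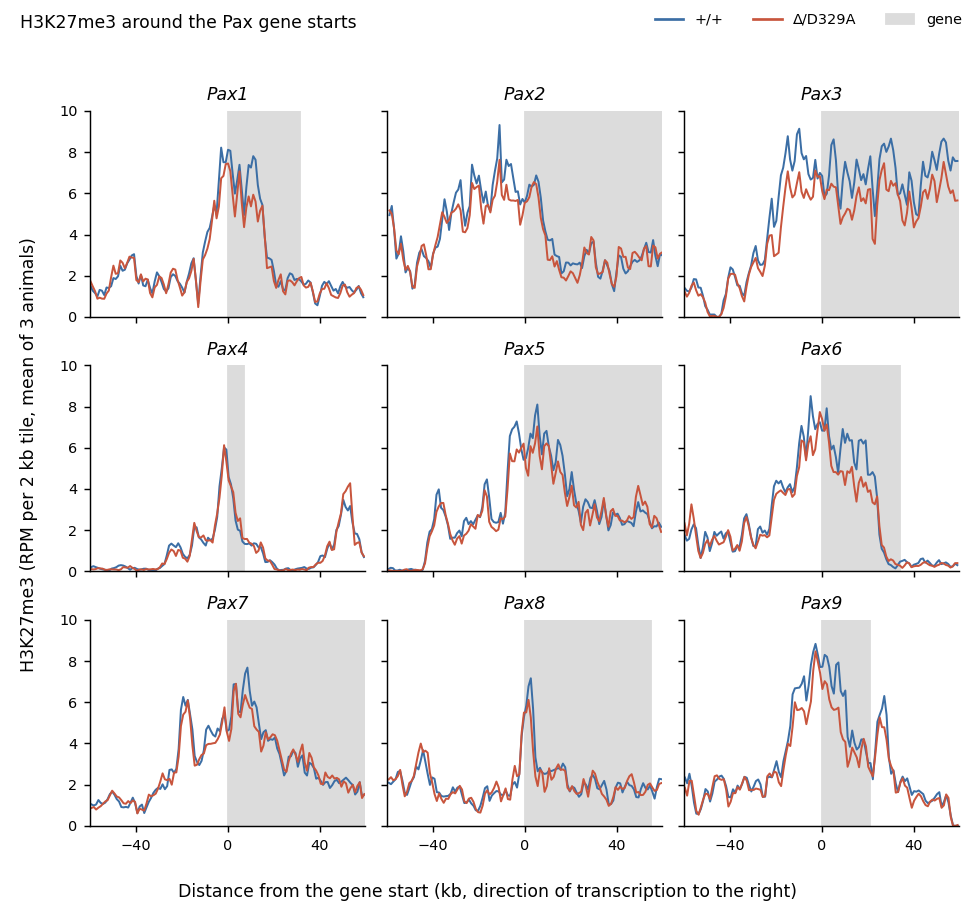
H3K27me3 in RPM per 2 kb tile (mean of 3 animals per genotype) against the distance from the gene start in kb, for the 9 Pax genes, with the gene shaded. The profiles of the genotypes lie close at the starts, and that of Δ/D329A runs below +/+ over Pax3 and inside Pax1, Pax6 and Pax9, while Pax4 and Pax8 carry a narrow domain at the start.

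Between genotypes no Pax promoter differed in H3K27me3 beyond the spread of the animals. Pax1 stood at 8.09, 7.57 and 7.78 RPM in +/+ and 6.55, 8.16 and 7.59 in Δ/D329A, and Pax6 at 7.11, 6.24 and 7.76 RPM in +/+ and 7.46, 6.44 and 8.81 in Δ/D329A. The groups overlapped at all 9 promoters. The differences were -0.14 (Pax9) to 0.10 (Pax6) on the log2(RPM + 0.1) scale, with SE of 0.09 to 0.16, a median of -0.08 beside -0.02 over all promoters, and adjusted p of 0.774 to 0.970 in limma. No promoter of the genome was called (0%, with 2309 of 25952 at an unadjusted p under 0.05, and 215 called by edgeR on recovered reads), and 6.3% stood higher and 7.31% lower in Δ/D329A without overlap. Among the 520 promoters in the highest 2% of mean H3K27me3, which hold all 9 Pax promoters, 27.9% stood lower without overlap and 1.73% higher, and 0 of the 9 Pax promoters did either.

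Over the gene bodies the picture differed by gene. Pax9 stood at 5.58, 5.63 and 5.60 RPM in +/+ and 4.24, 4.84 and 4.42 in Δ/D329A, or 80.3% of +/+. Pax6 stood at 4.25, 4.18 and 4.48 RPM in +/+ and 3.56, 3.22 and 3.73 in Δ/D329A, or 81.4%. Pax3 stood at 5.77, 5.49 and 5.79 RPM in +/+ and 4.69, 4.83 and 4.76 in Δ/D329A, or 83.7%. In each of these genes every Δ/D329A animal was below every +/+ animal.

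Pax1 stood at 4.24, 4.23 and 4.45 RPM in +/+ and 3.53, 3.75 and 3.84 in Δ/D329A (86.1%), and Pax2 at 3.33, 3.27 and 3.42 RPM in +/+ and 3.15, 3.15 and 3.13 in Δ/D329A (94.1%), again without overlap. Pax4, the shortest of the 9 genes, was the exception and stood higher, at 2.61, 2.57 and 2.67 RPM in +/+ and 3.01, 2.91 and 2.81 in Δ/D329A (111%). Pax5, Pax7 and Pax8 overlapped, with levels of 92.8% (Pax8) to 101% (Pax7) of +/+.

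Thus 5 of 9 Pax gene bodies stood lower without overlap, where 14.7% of all 23654 gene bodies did, and 1 of 9 stood higher, where 4.95% did. The share lower depends on the level. Among the 474 gene bodies in the highest 2% of mean H3K27me3, which hold Pax1, Pax3, Pax6 and Pax9, 38.6% stood lower in Δ/D329A without overlap and the median difference was -0.17 on the log2(RPM + 0.1) scale. Among the 709 from the 95th to the 98th percentile, which hold the other 5 Pax genes, 9.17% did, with a median of 0.05. The Pax differences were -0.31 ± 0.08 (SE) for Pax9, -0.29 ± 0.08 for Pax6, -0.25 ± 0.07 for Pax3 and -0.21 ± 0.07 for Pax1, and their adjusted p in limma were 0.351 to 0.356. With TMM scaling the 4 differences were smaller (-0.23 for Pax9 to -0.13 for Pax1), 2 in place of 4 Pax genes had an unadjusted p under 0.05, and Pax2 went from -0.08 to -0.0017, and to 0.0026 with edgeR. With edgeR on recovered reads 0 of 9 Pax gene bodies had an unadjusted p under 0.05. For these 4 genes the edgeR p was 0.054 (Pax9) to 0.218 (Pax1). The median over the 9 Pax genes was -0.10, beside -0.07 over all gene bodies. In limma 0.00846% of gene bodies were called and no Pax gene was among them, also not among the 47 that edgeR called on recovered reads. With 3 animals against 3 the exact permutation test cannot go below p = 0.1, which is its value for each gene without overlap.

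**Figure D3:**
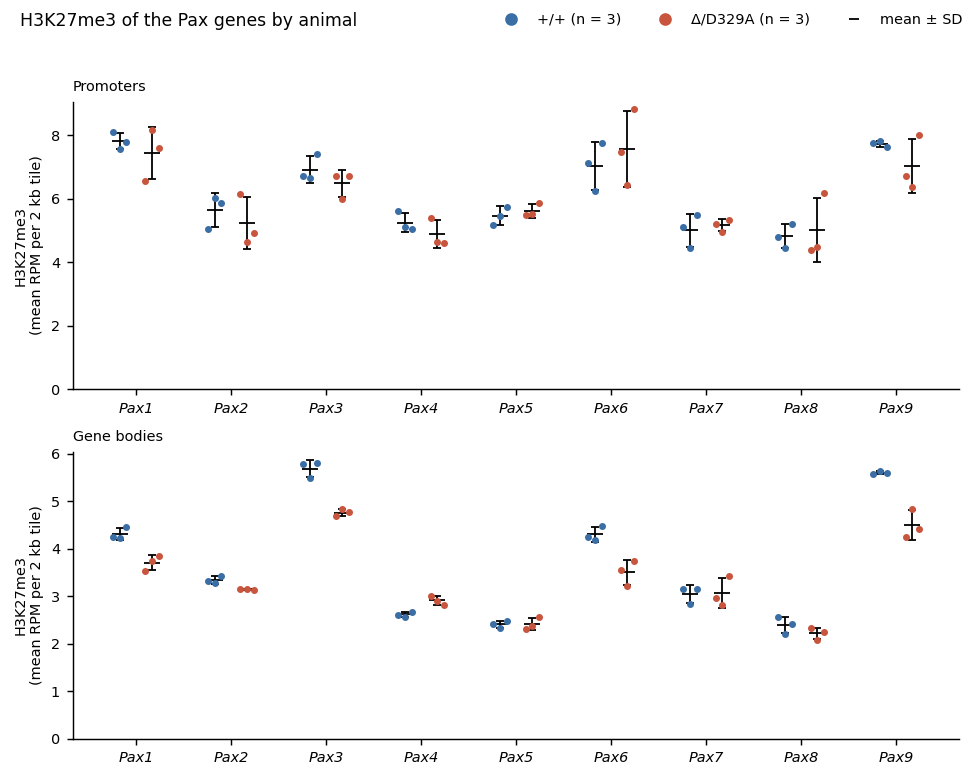
H3K27me3 (mean RPM per 2 kb tile) at the promoters (upper panel) and over the bodies (lower panel) of the 9 Pax genes in each +/+ and Δ/D329A animal, with the mean and SD of 3 animals. At the promoters all groups overlap, while over the bodies of Pax1, Pax2, Pax3, Pax6 and Pax9 all Δ/D329A animals lie below all +/+ animals, for Pax2 by a difference that is gone with TMM scaling.

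Summed over each domain, Δ/D329A held 82.8% of the +/+ level at Pax3, 85.1% at Pax9, 85.2% at Pax6 and 87.5% at Pax1, each without overlap between the animals (exact permutation p = 0.1, the smallest possible). The share was not computed over other domains. Of the gene bodies in the highest 2% of H3K27me3, which hold these 4 genes, 38.6% stood lower without overlap. Pax3, for example, averaged 5.90, 5.68 and 5.99 RPM in the +/+ animals and 4.74, 4.91 and 4.90 in the Δ/D329A ones. The other 5 domains overlapped and held 90.8% (Pax8) to 101% (Pax4).

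Several Pax genes have RefSeq starts inside the row, and at some of these the H3K27me3 of the genotypes separated where it did not at the row start. At the Pax1 start shown above, 3.07 kb into the row, it was 7.11, 6.45 and 5.88 RPM in +/+ and 4.84, 5.56 and 5.84 in Δ/D329A. At the downstream Pax6 start, 13.6 kb into the row, it was 5.88, 6.15 and 7.04 RPM in +/+ and 4.47, 5.16 and 5.15 in Δ/D329A. At the Pax9 start, 3.70 kb into the row, it was 7.24, 8.08 and 8.58 RPM in +/+ and 6.08, 7.11 and 6.32 in Δ/D329A. The groups did not overlap at any of these starts, nor at a Pax2 start 9.45 kb before the row (6.60 ± 0.26 against 5.80 ± 0.24 RPM, SD, n = 3 each). At the other 6 RefSeq starts they overlapped. Lower without overlap at 4 of 10 starts stands beside 27.9% of the row promoters in the highest 2% of H3K27me3. Looking at these starts was decided after seeing the data, and they carry no test over all genes.

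H3K36me3 over Pax gene bodies was low in +/+, at 0.202 (Pax9) to 0.754 RPM (Pax6). Over input this was a log2 level of -1.65 to -0.04, in the 3.26 to 50.1 percentile of gene bodies, with Pax6 the highest. In Δ/D329A all 9 means were higher. Pax9 stood at 0.225, 0.159 and 0.222 RPM in +/+ and 0.472, 0.315 and 0.480 in Δ/D329A, or 209% of +/+. Pax4 stood at 0.416, 0.443 and 0.410 RPM in +/+ and 0.625, 0.696 and 0.656 in Δ/D329A (156%), and Pax1 at 0.306, 0.329 and 0.287 and at 0.456, 0.420 and 0.455 (144%). The animals of these genes did not overlap.

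Pax3 stood at 0.442, 0.435 and 0.387 RPM in +/+ and 0.610, 0.525 and 0.656 in Δ/D329A (142%), and Pax5 at 0.315, 0.341 and 0.354 and at 0.501, 0.441 and 0.492 (142%). Pax8 reached 130%, Pax2 125% and Pax6 116% of +/+, likewise without overlap, and Pax7 (119%) overlapped. So 8 of 9 Pax gene bodies stood higher without overlap, where 7.14% of all gene bodies did. Of the 11827 gene bodies in the lower part of the H3K36me3 levels (below 0.794 RPM, the median), which hold every Pax gene but Pax6, 12.4% stood higher and 3.37% lower without overlap, with a median difference of 0.07 on the log2(RPM + 0.1) scale. Above that median 1.84% stood higher and 26.4% lower, with a median of -0.08. The Pax genes other than Pax6 lie from the 7.08 (Pax9) to the 30.5 percentile (Pax8) in +/+ RPM. The share at those narrower levels was not computed, so 12.4% is not matched to them. The Pax differences were 0.18 (Pax7) to 0.78 (Pax9) with a median of 0.40, beside -0.02 over all gene bodies.

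In limma no gene body of the genome was called for H3K36me3 (0%, with 3814 of 23654 at an unadjusted p under 0.05, among them 7 Pax genes), and the Pax genes had adjusted p of 0.223 to 0.546. The call depended on the test. edgeR on recovered reads, an alternative chosen after seeing the data, called 170 gene bodies, 115 of them higher in Δ/D329A (0.496% of 23208), and 6 Pax genes were among those: Pax5 (adjusted p = 9.31e-05), Pax3 (8.11e-04), Pax9 (0.00321), Pax1 (0.0158), Pax8 (0.0327) and Pax2 (0.0460). The input of the Pax6 body itself stood at 0.762, 0.800 and 0.776 RPM in +/+ and 0.955, 0.899 and 0.901 in Δ/D329A, and relative to input the Pax6 difference was -0.02. For the other 8 genes the mean relative to input remained higher in Δ/D329A.

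**Figure D4:**
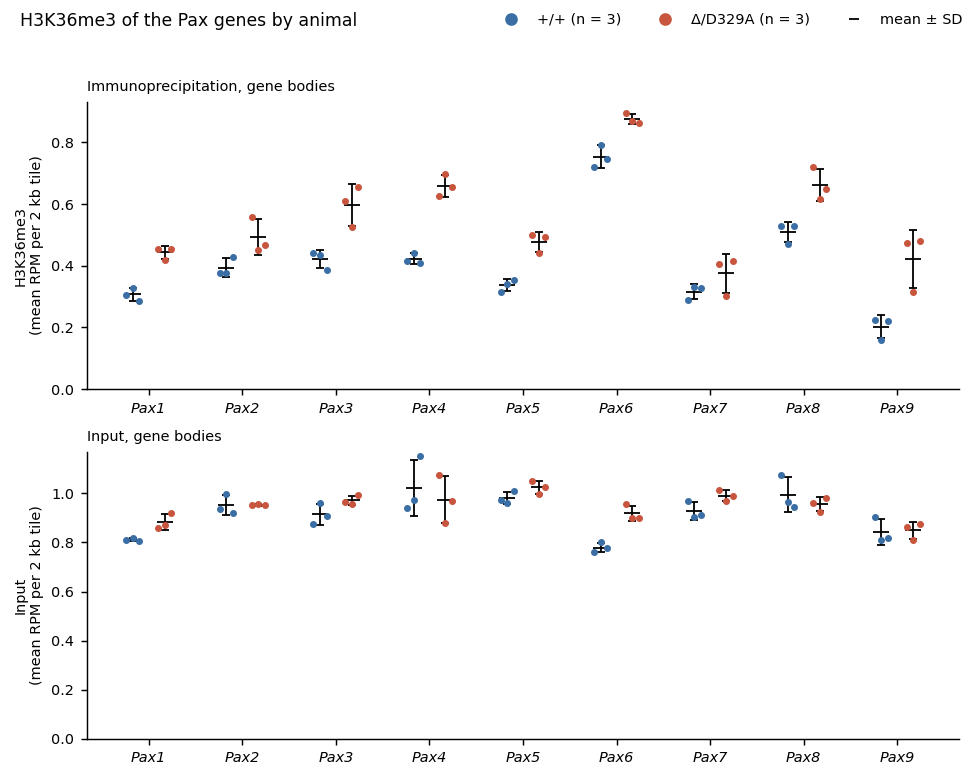
H3K36me3 (upper panel) and input (lower panel) over the bodies of the 9 Pax genes, in mean RPM per 2 kb tile, for each +/+ and Δ/D329A animal with the mean and SD of 3 animals. All Δ/D329A animals lie above all +/+ animals in H3K36me3 except for Pax7, and the input of Pax1 and Pax6 is also higher in Δ/D329A.

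At the promoters H3K36me3 was lower still, at 0.0718 (Pax2) to 0.384 RPM (Pax8) in +/+, and 3 of 9 stood higher in Δ/D329A without overlap, where 8.99% of all promoters did. These were Pax3 (0.109, 0.0948 and 0.0262 RPM in +/+, and 0.390, 0.172 and 0.367 in Δ/D329A), Pax4 (0.231 ± 0.115 against 0.568 ± 0.112 RPM, SD, n = 3 each) and Pax2 (0.0718 ± 0.0065 against 0.126 ± 0.030 RPM). Over all promoters the median difference was 0.106 and became 0.0004 with TMM scaling, and the Pax median of 0.90 became 0.78. In limma 0.0231% of promoters were called and no Pax promoter was among them (adjusted p 0.718 or above).

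H3K4me3 was low at the row starts of the Pax genes, at 0.0872 (Pax8) to 3.28 RPM (Pax6) in +/+ against a median of 5.64 RPM over all promoters, and in the 3.60 to 46.4 percentile over input. The H3K4me3 libraries differed in background, with a median of 5 reads per tile in Δ/D329A replicate 1, 1 in Δ/D329A replicate 2 and 2 to 3 in the rest. The part of this in the values at low regions was not tested. Pax2 stood at 0.727, 0.831 and 0.920 RPM in +/+ and 2.04, 0.986 and 1.48 in Δ/D329A, and Pax8 at 0.0632, 0.0998 and 0.0985 and at 0.125, 0.355 and 0.323. These 2 of 9 promoters stood higher in Δ/D329A without overlap, where 1.83% of all promoters did. The level of Pax8 is close to the bottom of all promoters (8.41 percentile in RPM), and in a window of 1000 bp to either side of the start its difference turned to -0.27. Pax6 varied widely, from 2.62 to 4.34 RPM in +/+ and from 0.753 to 4.69 in Δ/D329A. No promoter was called in limma (0%, with 900 of 25952 at an unadjusted p under 0.05, and 157 called by edgeR on recovered reads), and the Pax differences ran from -0.83 (Pax6) to 0.91 (Pax8).

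Over gene bodies only Pax2 stood higher without overlap (0.272 ± 0.020 against 0.497 ± 0.057 RPM, SD, n = 3 each; 2.14% of all gene bodies did so), with a difference of 0.68 ± 0.15 (SE, log2 scale, adjusted p = 0.780 in limma). No gene body was called (0%, with 836 of 23654 at an unadjusted p under 0.05, and 0 called by edgeR on recovered reads). At the downstream Pax2 start shown above, 0.857 kb into the row, H3K4me3 was 1.17, 1.13 and 1.28 RPM in +/+ and 2.70, 1.62 and 2.61 in Δ/D329A, without overlap, while H3K27me3 there overlapped (5.72 ± 0.87 against 5.58 ± 0.69 RPM, SD, n = 3 each). The highest H3K4me3 tile of Pax2 (chr19:44835001-44837000), 80.0 kb into the gene and near its end, where the row 1700039E22Rik overlaps, held 3.10, 2.13 and 3.28 RPM in +/+ and 6.02, 10.3 and 9.75 in Δ/D329A. That row had 0 reads in +/+ and at most 1 in a Δ/D329A library.

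In Pax1 the highest tile lay 3.08 kb into the row, at the RefSeq start shown above, with 0.759, 0.865 and 1.12 RPM in +/+ and 1.88, 2.84 and 2.13 in Δ/D329A. In Pax9 it lay 4.23 kb into the row, next to its RefSeq start, with 1.71, 1.46 and 1.77 RPM in +/+ and 4.26, 1.89 and 4.52 in Δ/D329A. Neither overlapped between the genotypes. The Pax6 and Pax5 tiles were by far the highest, 14.3 ± 1.5 RPM (SD, n = 3) at 7.10 kb into Pax6 and 12.6 ± 1.5 RPM at 47.4 kb into Pax5 in +/+, and both overlapped with Δ/D329A (15.7 ± 6.6 and 11.2 ± 3.4 RPM). Those of Pax3, Pax4, Pax7 and Pax8 were at 0.583 to 1.36 RPM in +/+ and overlapped too. Each tile was chosen for its level over all 6 animals, so that its genotype values are a description.

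**Figure D5:**
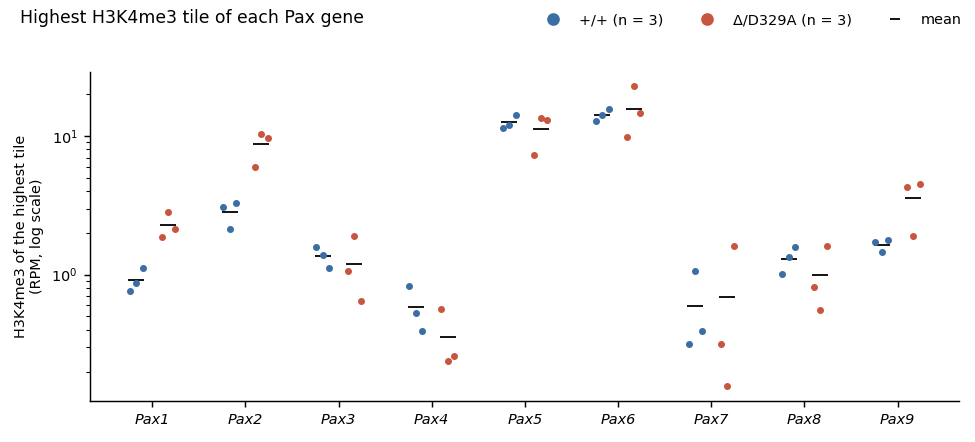
H3K4me3 of the tile with the highest mean over the 6 animals in each Pax gene, in RPM on a log scale, for each +/+ and Δ/D329A animal with the mean of 3. The tiles of Pax1, Pax2 and Pax9 are higher in every Δ/D329A animal than in any +/+ animal, and those of Pax5 and Pax6 stand highest and overlap.

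Across the readouts, Pax1 and Pax9, the paired genes of the vertebral precursors, had reads in 3 of 4 Δ/D329A libraries against 0 and 2 of 5 in +/+, and both had lower H3K27me3 over the body and at the RefSeq start and higher H3K36me3 over the body, each without overlap. Their highest H3K4me3 tile, chosen for its level, was higher too. In the 2 kb at the RefSeq start itself H3K4me3 separated for Pax1 (0.474, 0.665 and 0.723 RPM in +/+ and 1.19, 1.66 and 1.32 in Δ/D329A) and overlapped for Pax9 (0.443, 0.732 and 0.821 and 1.51, 0.749 and 1.29). The Pax1 window averages 2 tiles and includes that highest tile, so it is not a separate readout. Pax6 had lower H3K27me3 over its body with overlapping RNA and H3K4me3, and Pax8 was read in every Δ/D329A library while its H3K27me3 overlapped over promoter and body. Pax2, Pax3 and Pax6 also had lower H3K27me3 and higher H3K36me3 over the body without overlap. The H3K27me3 difference of Pax2 was gone with TMM scaling, and the H3K36me3 difference of Pax6 relative to input. Pax3 was also read in every Δ/D329A library. Over all gene bodies 14.7% stood lower in H3K27me3 without overlap and 7.14% higher in H3K36me3, and 38.6% stood lower in the highest 2% of H3K27me3. The RefSeq starts were looked at after seeing the data. Those of Pax1 and Pax9 lie inside the gene body, so their tiles also enter the body values. RNA and chromatin came from separate sets of libraries, so that these values join genes and not animals. The study's legends conflict on the sex of the RNA animals. The assays may therefore differ in sex, and assay and sex cannot then be told apart.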

How the data were processed

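RNA-seq values of 9 libraries (5 +/+, 4 Δ/D329A) and ChIP-seq values of 24 libraries from adult hypothalamus were used, and 46 bisulfite samples were not analysed here. Per the labels and the study's methods, RNA was ribosome-depleted and sequenced as single reads, chromatin was prepared as native, MNase-digested low-input material, reads were mapped to GRCm38 and quantified in SeqMonk, and 1 further Δ/D329A RNA library was left out for quality. The submitters' processing notes name Trim Galore 0.4.3, HISAT2 2.0.5 and Bowtie2 2.3.2. The deposited RNA values are log2 RPKM per gene made by the authors, with 0.9 reads in place of 0. The deposited ChIP values are RPM, a read coverage signal, made by the authors in 2725549 tiles of 2000 bp every 1000 bp, without input subtraction. No column was left unused.

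Whole reads were recovered for all 25965 RNA rows within 0.02 reads and for the ChIP tiles within 0.01. RNA was tested with limma 3.58.1 (trend) on log2 RPKM for genes at 0.1 RPKM or more in at least 4 libraries, 13 mitochondrial genes left out (Benjamini-Hochberg adjusted p under 0.01). Single Pax genes were tested by a two-sided exact permutation test over 126 arrangements of the libraries. Promoter and body means were tested with limma on log2(RPM + 0.1) over all regions (adjusted p under 0.05). edgeR 4.0.16 and DESeq2 1.42.0 on recovered reads, other scalings, filters, pseudocounts and windows, replicate and batch blocks and leaving out each library were alternatives. The batch block set +/+ replicates 1 and 2 and Δ/D329A replicate 1 apart from the remaining chromatin animals. The sample labels name no batch, so this split is an assumption. On simulated data for RNA, 198 of 200 genes changed by log2 2 were recovered among 17834, and 0 of 200 changed by log2 1 among 17862. For H3K36me3 bodies 189 of 200 changed by log2 1 were recovered, and for H3K27me3 bodies 71 of 200, both among 23654. Changed genes were drawn only from those with a mean of at least 20 reads, and changed regions only from those richest in the mark. These rates therefore do not cover the RNA of the Pax genes other than Pax6, nor the low H3K36me3 of the Pax bodies.

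All 9 Pax genes were named in every comparison. Members of the gene lists were named where called and otherwise by level or size of difference. Neighbours are the nearest row to each side and the overlapping rows. The members and lists were chosen with earlier results of these data known. Replicates are single animals. The labels do not say that a replicate number marks a shared litter or day, so numbers were not taken as pairs. Promoter sequences are from RefSeq (GRCm38.p6).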

Additional observations from a re-analysis of the deposited data

Results flagged for a closer look

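In 4 of 15 groups with any read, 1 library stood apart from the rest of its genotype in CPM (reads scaled to 1000000 reads on genes), judged by its gap to the nearest value relative to the range of the group. Chance gives about 1 such group in 20, more often so where most libraries are at 0. Pax2 had 0.809 CPM in +/+ replicate 3 (5 reads). Pax3 had 0.355 in +/+ replicate 4 (2 reads), the only +/+ library with a Pax3 read. Pax4 had 0.152 in Δ/D329A replicate 1, its 1 read in all libraries. Pax7 had 0 in Δ/D329A replicate 2, the library with the fewest reads on genes (3874084), where the 3 remaining Δ/D329A libraries had 1.05 to 1.20 CPM.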

How the results depend on the processing

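Over 893 alternative values of 69 results, 790 kept their direction and side of the threshold or, for counts, stayed within 1.5 times. No Pax gene was called under any RNA alternative. For the marks no Pax region was called, except 6 H3K36me3 gene bodies with edgeR on recovered reads.

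The count of RNA genes called, 19, became 11 with a filter of 0.5 RPKM, 34 after median centring, 79 in edgeR and 251 in DESeq2, and 1 to 19 without single libraries (1 to 5 without a Δ/D329A one). H3K4me3 promoters went from 0 to 277 with a filter of 0.5 RPM, 90 with cyclic loess and 157 with edgeR. H3K4me3 gene bodies went from 0 to 1 as a ratio to input, 46 with the filter and 13 with cyclic loess. H3K27me3 promoters went from 0 to 9 with TMM, 222 with the filter, 169 with cyclic loess and 215 with edgeR. H3K27me3 gene bodies went from 2 to 1 with a pseudocount of 0.5 RPM, 0 as a ratio to input, 16 with the filter, 0 with the batch block, 47 with edgeR and 0 to 0 without single animals. H3K36me3 promoters went from 6 to 1 with the pseudocount of 0.5 RPM, 0 as a ratio to input, 0 with the filter, 2 with edgeR and 5 to 19 without single animals. H3K36me3 gene bodies went from 0 to 170 with edgeR and 0 to 4 without single animals. The lists were unchanged in count except that DESeq2 called 2 midbrain-hindbrain genes and 1 Pax6 target, and that the 1 call among Pax8 and Pax2 targets, Wt1, became 0 with the 0.5 RPKM filter and 0 to 1 without single libraries, where Wt1 no longer reached the minimum of 4 libraries. The median log2 H3K27me3 level over input in +/+ was 2.97 at Pax promoters and 1.71 over Pax bodies, and 2.51 and 1.40 with a pseudocount of 0.5 RPM. Pax domains lower without overlap went from 4 to 7 at a threshold of 1.5, and 4 to 7 without single animals.

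With the replicate block, H3K27me3 gene bodies called went from 2 to 0 and H3K36me3 promoters from 6 to 0, RNA stood at 16, and no Pax call changed. The replicate numbers are not a pairing by the labels. Same-numbered libraries had correlations of their deviations of -0.29 to 0.31, and 13 of 22 correlated best with their own number.

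Small uncalled differences turned in sign, each on the log2 scale. In H3K27me3 bodies Pax2 was 0.0026 with edgeR, Pax5 0.0815 with TMM, 0.0755 with edgeR and -0.041 to 0.0281 without single animals, and Pax7 -0.0765 as a ratio to input, -0.0178 with the batch block and -0.0724 to 0.0631 without single animals. Pax6 in H3K36me3 bodies was -0.0178 as a ratio to input, the Pax8 H3K4me3 promoter -0.27 with 1000 bp to either side, and Pax7 RNA -0.78 to 0.10 without single libraries. Exact p values of Pax3 and Pax8 RNA were lost without single libraries, and those of Pax4, Pax5 and Pax9 in CPM.

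Every Pax gene but Pax6 had 0 to 13 reads a library, and the marks were read in 3 animals a genotype.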
